A study of Mus musculus with 12 samples.

Results

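The clustered protocadherins are cadherin-like cell surface proteins encoded by 3 gene arrays that lie next to each other on mouse chromosome 18. They were taken here as the protein-coding genes whose symbols start with Pcdha, Pcdhb, Pcdhga, Pcdhgb or Pcdhgc, which gave 59 of 54193 genes: 15 Pcdha, 22 Pcdhb and 22 Pcdhg members. RNA was sequenced from the laser-captured substantia nigra pars compacta (SNpc) of 12 mice aged 1 week, 3 per group and 1 library per mouse. The groups were OF1-En1+/- (mice SW21, SW22, SWB), OF1 WT (mice SW31, SW7, SWG), C57-En1+/- (mice C5713, C572, C575) and C57 WT (mice C5710, C572S, C5743), and the values of a group are always given in this order of mice. OF1 is the outbred SwissOF1 strain and C57 the inbred C57Bl/6j strain. In En1+/- mice 1 copy of Engrailed 1, a homeobox gene of midbrain dopaminergic neurons, is disrupted by a LacZ insertion in every cell, and the C57-En1+/- line came from backcrossing the OF1-En1+/- line, so both lines carry the same allele. All mice are labelled as males. The captured piece was nigral tissue and not single cells, so fewer cells of a type and less RNA per cell cannot be told apart.

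Each mature neuron transcribes only a few of the variable members of each array from promoters chosen largely at random, a choice that depends on CTCF, cohesin and DNA methylation. The resulting proteins bind like to like between cells, so that the mixture on its surface lets a neuron recognise and avoid its own branches. The C-type members at the end of the Pcdha and Pcdhg arrays are expressed more constantly and have roles of their own in mice: Pcdhac2 in the spacing of serotonergic axons, Pcdhgc3 in dendrite branching and Wnt signalling, and Pcdhgc4 in the survival of neurons after birth.

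All members lie on the + strand of GRCm39, Pcdha from 37063237 (the start of Pcdha1) to 37320716, Pcdhb from 37397991 (Pcdhb1) to 37657532 (the end of Pcdhb22) and Pcdhg from 37794846 (Pcdhga1) to 37975014. Each Pcdha and Pcdhg member has a large first exon of its own for the extracellular part and is spliced to 3 constant exons shared by the whole array. The constant exons of Pcdha, of 59, 89 and 2716 bases, were shared by 14 members, and those of Pcdhg, of 59, 89 and 2059 bases, by all 22. Pcdhb members shared no such exon. Reads from the constant exons fit every member of an array, so the authors' quantification tool, Salmon, divided them among the members by estimate. The total of reads of an array does not depend on that division, but the split among its members does. A total scaled by transcript length, as used for the levels below, depends on it in part, because the transcripts differ in length. The values of the members of 1 array are not independent of each other. The captured RNA was primed from the poly(A) tail, next to the constant exons, and strand was not recorded. The remaining member, Pcdha4b, is a model that runs from the Pcdha array into the Pcdhg constant region (37085794 to 37973253).

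Some libraries stood apart from their labels or groups. Xist, which is transcribed only from an inactive X chromosome, was high in 1 mouse, C57-En1+/- mouse C572, at 1330.5 normalized counts (reads scaled to a common depth) against at most 34.9 elsewhere. The Y-linked gene Ddx3y was at 0 in that mouse and at 749 or more in the other 11, so the sex or label of C572 is in doubt. The summed level of 10 dopaminergic markers was 6823 TPM (transcript abundance per length, scaled to the same total in each library) in OF1-En1+/- mouse SW22 and 10738 TPM in C57 WT mouse C572S, and 31.9 to 139 TPM in the other 10 mice, so most libraries held little RNA with the markers of the labelled cell population. En1 itself was at 691 and 1071 normalized counts in SW22 and C572S and at most 15.2 elsewhere, and therefore did not check the genotype labels. General neuron markers summed to 4189 to 10196 TPM, with the most in C572. Library depth was 13570749 to 28294254 estimated reads in OF1-En1+/-, 13538864 to 30927714 in OF1 WT, 20030280 to 37754338 in C57-En1+/- and 61433970 to 168741283 in C57 WT mice. The p-values below measure the spread between mice, whose litters the labels do not give.

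The members took 0.050% (C572) to 0.128% (C575) of the reads of a library, and the median member had 105 reads in the library with the fewest (SW21) and 1747 in the one with the most (C5743). With a member called detected at 10 reads or more after scaling to the shallowest library, 50 (SW7) to 56 (C5710) of the 59 were detected per mouse and 44 were detected in all 12 mice. Of the Pcdha members 13 of 15 were detected in every mouse. Pcdhb1 and Pcdhb13 were detected in none, and Pcdhgb8, which the annotation marks as a loss-of-function gene, in 3 mice. Pcdha8 was detected in 2 mice. Pcdha4b had 163 estimated reads in C57 WT mouse C5710, 6.86 in C57 WT mouse C5743 and 0 in the other 10 mice, and was the 1 member listed at 0 in all mice of OF1 and not in all mice of C57. Because its model overlaps that of Pcdha4, and only 2 of 6 C57 mice had any reads, no strain difference was read from it.

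The Pcdhg array was the most abundant of the 3. Its members summed to 118, 148 and 112 TPM in OF1-En1+/- mice and to 155, 140.0 and 225 TPM in OF1 WT mice. In the C57 strain they summed to 133, 75.5 and 191 TPM in C57-En1+/- mice and to 199.7, 179.7 and 197 TPM in C57 WT mice. The lowest value of all was that of C572, while the 3 C57 WT mice lay close together. The En1+/- mean was below the WT mean in both strains, at 126 ± 19.1 against 173 ± 45.3 TPM in OF1 and 133 ± 57.8 against 192 ± 10.9 TPM in C57 (SD, n = 3 each). In OF1 only SW22 of the En1+/- mice (148) exceeded a WT mouse (SW7, 140.0), and in C57 only C575 (191) did (C572S, 179.7). By normalized counts the Pcdhg means were 12172 in OF1-En1+/- and 18731 in OF1 WT mice, and 14029 in C57-En1+/- and 19647 in C57 WT mice.

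Pcdha summed to 54.1 ± 13.5 TPM in OF1-En1+/- and 59.5 ± 19.7 TPM in OF1 WT mice, and to 59.5 ± 39.3 TPM in C57-En1+/- and 84.2 ± 8.83 TPM in C57 WT mice (SD, n = 3 each). The C57-En1+/- mice were spread from 34.9 TPM in C572 to 105 TPM in C575, a range that held every other mouse, and without C575 their mean was 36.8 TPM. Pcdhb summed to 51.2 ± 7.08 TPM in OF1-En1+/- and 43.1 ± 6.75 TPM in OF1 WT mice, and to 43.6 ± 15.5 TPM in C57-En1+/- and 64.3 ± 10.5 TPM in C57 WT mice (SD, n = 3 each). The groups overlapped in both strains, as SW21 (45.2 TPM) was below SWG (49.3 TPM) and C575 (60.3 TPM) above C5743 (55.04 TPM).

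**Figure D1:**
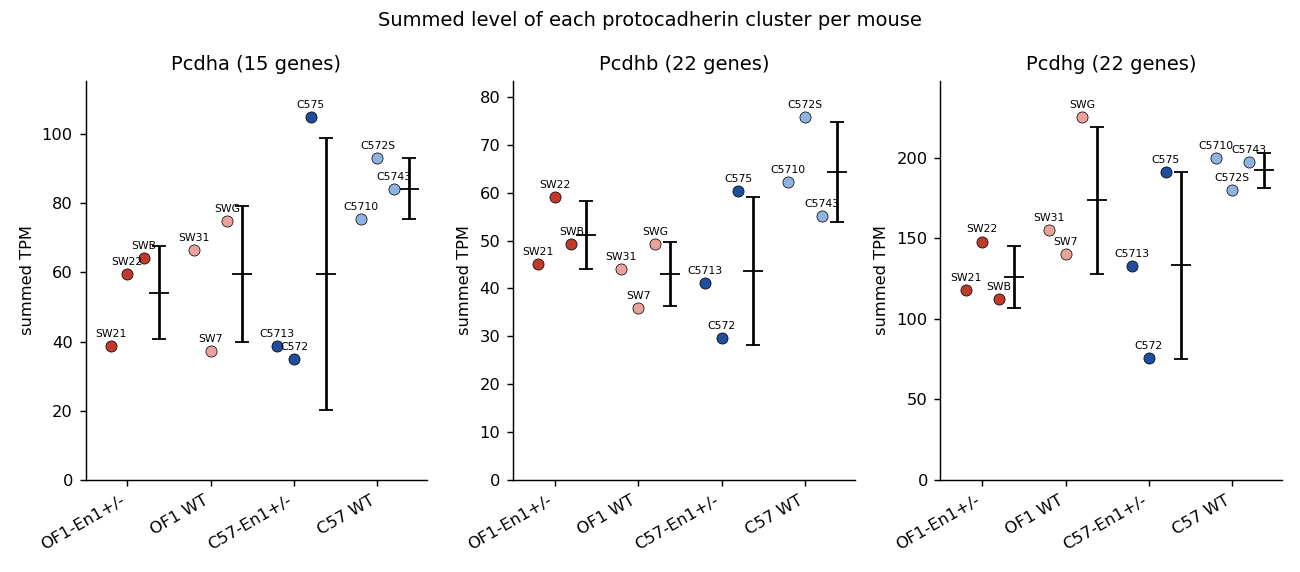
Summed level of the members of the Pcdha, Pcdhb and Pcdhg arrays in each of the 12 mice, in TPM on a linear axis, by group, with error bars of the group mean ± SD (n = 3 each). Pcdhg is the highest array in every mouse, from 75.5 TPM in C572 to 225 TPM in SWG.

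Over all 59 members the level was 231 ± 32.5 TPM in OF1-En1+/- against 276 ± 68.6 TPM in OF1 WT mice, and 236 ± 110.1 TPM in C57-En1+/- against 341 ± 6.79 TPM in C57 WT mice (SD, n = 3 each). The 3 C57 WT mice, at 337, 349 and 336 TPM, differed far less than the 3 C57-En1+/- mice, at 213, 139.9 and 356 TPM. Set against general neuron markers, the members had 13.7 TPM per 1000 TPM of markers in C572, the lowest value, and 34.3 to 58.4 in the other 11 mice. C572 also had the most oligodendrocyte lineage markers (3046 TPM, against 284 to 2256 TPM elsewhere) and serotonergic markers (130.4 TPM, against at most 24.1 TPM), and their part in its low member levels was not tested.

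Choice within Pcdhg was led by 1 gene in every mouse. Pcdhgc4 (37947920 to 37975014) took 44.7% (C575) to 71.1% (SW7) of the TPM of the array in the 12 mice. Its level was 68.7, 83.4 and 67.2 TPM in OF1-En1+/- mice and 91.5, 99.5 and 136 TPM in OF1 WT mice, with every En1+/- mouse below every WT mouse. It was 94.1, 43.0 and 85.4 TPM in C57-En1+/- mice and 101, 80.6 and 106 TPM in C57 WT mice, where the groups overlapped. As a share of Pcdhg it was 58.1 ± 1.76% in OF1-En1+/-, 63.4 ± 6.64% in OF1 WT, 57.5 ± 13.1% in C57-En1+/- and 49.8 ± 4.52% in C57 WT mice (SD, n = 3 each).

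How much of this lead belongs to Pcdhgc4 rests on 1 of its 3 annotated transcripts. That transcript is 2272 bases long and 93.1% of it is constant exon, so that few of its reads can be told from those of other Pcdhg members. It made up 48.5, 40.4 and 68.2% of the TPM of the gene in OF1-En1+/- mice and 30.5, 62.4 and 14.0% in OF1 WT mice. It made up 66.0, 77.8 and 17.8% in C57-En1+/- mice and 21.4, 29.8 and 17.7% in C57 WT mice. The share was therefore lowest in SWG, C575 and the C57 WT mice and highest in C572, and it ranged widely within every group but C57 WT. With this transcript left out of both the gene and the array total, Pcdhgc4 had 22.7% (C572) to 56.6% (SWG) of the array. If its reads came from other Pcdhg members, the share of Pcdhgc4 would be lower than this. The long transcript, which holds the first exon of Pcdhgc4, was at 30.9, 45.1 and 16.8 TPM in OF1-En1+/- and 58.1, 28.4 and 107 TPM in OF1 WT mice, so that the groups overlapped on this transcript, unlike the gene total. It was at 23.0, 6.93 and 60.9 TPM in C57-En1+/- and 62.4, 51.8 and 73.2 TPM in C57 WT mice, with only C575 of the En1+/- mice reaching the WT range.

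**Figure D2:**
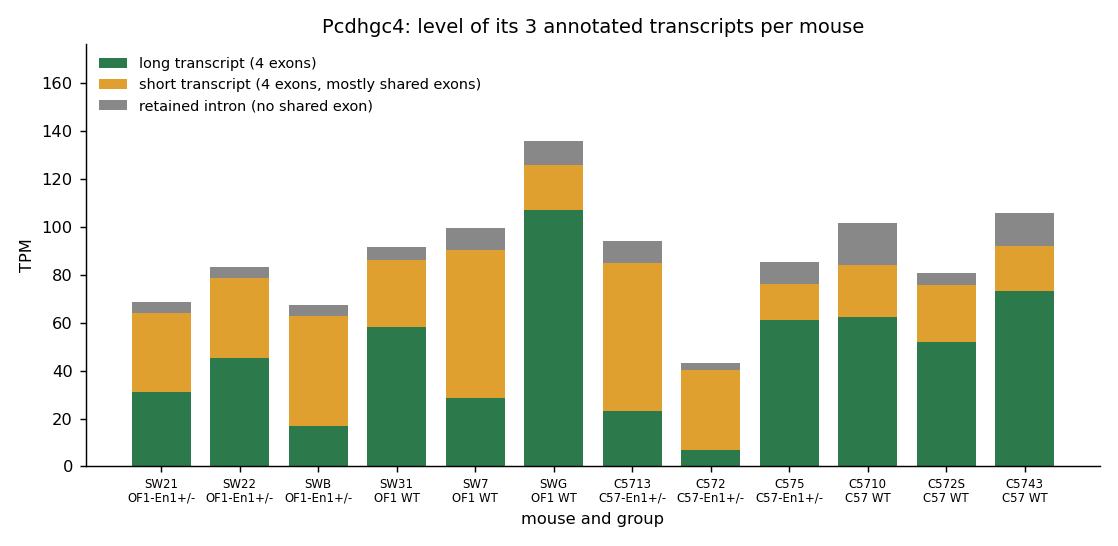
TPM of the 3 transcripts of Pcdhgc4 (long, short and retained intron) stacked for each of the 12 mice, on an axis that starts at 0. The short transcript, 93.1% constant exon, ranges from 14.0% of the gene in SWG to 77.8% in C572.

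Pcdhgc3 was the second member of Pcdhg in all 12 mice, with 5.17% (SW7) to 12.8% (SW21) of the array. Its level was 15.1, 11.9 and 11.7 TPM in OF1-En1+/- and 11.5, 7.24 and 16.4 TPM in OF1 WT mice, and 8.55, 5.88 and 24.0 TPM in C57-En1+/- and 20.7, 16.1 and 12.3 TPM in C57 WT mice. The groups overlapped in both strains. Pcdhgc5, the last member of the array, stayed between 0.531 TPM (C572) and 3.91 TPM (C575), so the C-type members of Pcdhg differed widely in level from each other. In all, C-type members held 54.8 to 78.0% of Pcdhg. This share counts the short Pcdhgc4 transcript as C-type and would be lower without it.

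In the Pcdha array Pcdhac2 (37276444 to 37320716) led in 11 of 12 mice, with 14.2% (C5713) to 30.6% (SWB) of the TPM. Its level was 6.38, 10.3 and 19.6 TPM in OF1-En1+/- and 19.0, 6.79 and 13.9 TPM in OF1 WT mice, and 5.52, 7.08 and 31.9 TPM in C57-En1+/- and 16.3, 17.2 and 16.9 TPM in C57 WT mice. The C57 WT mice were again close together, and both En1+/- groups spread around the WT values. In C57-En1+/- mouse C5713 the leader was the variable member Pcdha4, at 14.97% against 14.2% for Pcdhac2. Pcdhac1, the other C-type member of the array, was far lower, at 1.17, 2.40 and 2.89 TPM in OF1-En1+/- and 0.296, 0.322 and 1.17 TPM in OF1 WT mice, where SW21 and SWG had the same rounded value. It was at 0.501, 2.05 and 3.58 TPM in C57-En1+/- and 1.39, 1.65 and 1.07 TPM in C57 WT mice, where the groups overlapped. C-type members held 15.5 to 35.1% of Pcdha, so that most of this array came from variable members.

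The variable members shared their arrays more evenly, and which of them led changed from mouse to mouse. Among variable Pcdha members the leader was Pcdha2, Pcdha4 or Pcdha12 in 3 mice each, Pcdha5 in 2 and Pcdha10 in 1. Among variable Pcdhg members it was Pcdhga7 in 6 mice, Pcdhga10 in 2 and Pcdhga3, Pcdhga8, Pcdhga11 or Pcdhgb6 in 1 each. The inverse Simpson index, which counts how many equally abundant members would give the same evenness, was 8.64 to 10.0 for the variable Pcdha members, 10.8 to 13.5 for Pcdhb and 12.2 to 14.8 for the variable Pcdhg members. The Pcdhga members held 17.9 to 36.9% of Pcdhg and the Pcdhgb members 4.07 to 9.55%.

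Pcdhb has no C-type member and no shared exon, so no constant-exon reads were divided among its members. Whether other reads fitted more than 1 Pcdhb member was not tested. Pcdhb9 led in 6 mice, Pcdhb8 and Pcdhb20 in 2 each, and Pcdhb7 and Pcdhb12 in 1 each. Pcdhb9 was at 5.18, 7.85 and 7.91 TPM in OF1-En1+/- and 4.89, 3.80 and 6.75 TPM in OF1 WT mice, and at 2.79, 4.06 and 8.51 TPM in C57-En1+/- and 8.84, 9.94 and 8.42 TPM in C57 WT mice. Pcdhb8 varied most among these leaders, from 0.588 TPM in C572 and 1.02 TPM in SWG to 6.15 TPM in SW21, with high and low mice in both strains. Pcdhb12 led in C572S, at 11.4 TPM against 1.66 to 5.84 TPM in the other 11 mice. The Pcdhb9 model has a last exon beyond Pcdhb10, and the models of Pcdhb21 and Pcdhb22 overlap, so reads there were also divided by estimate.

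**Figure D3:**
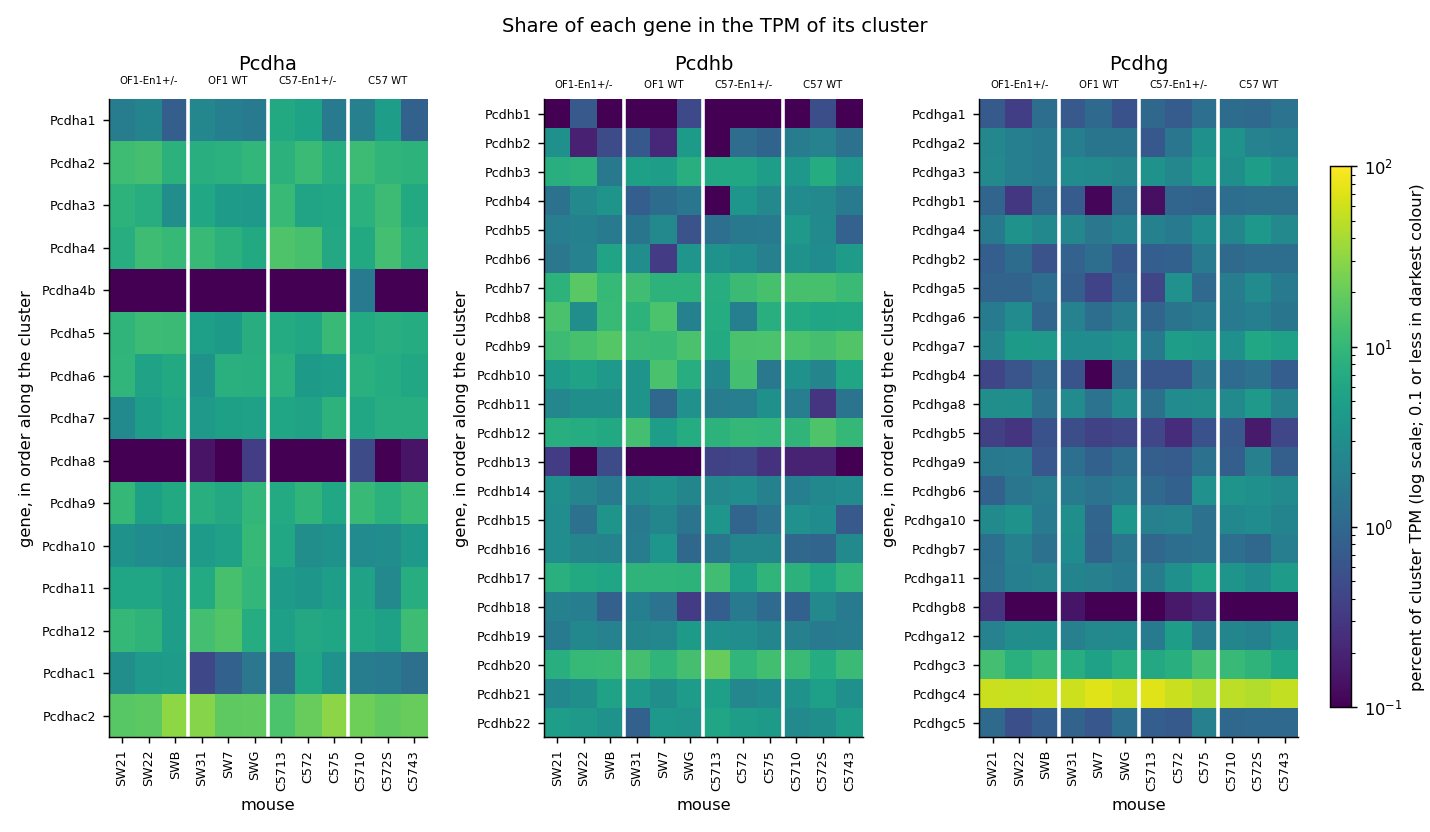
Share of each member in the TPM of its array (percent, logarithmic colour scale with the darkest colour at 0.1 or less), with members in genome order and the 12 mice ordered by group. Pcdhgc4 stands out in every mouse (44.7 to 71.1% of Pcdhg), and Pcdhac2 (14.2 to 30.6% of Pcdha) leads its array in 11 of 12 mice.

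To ask whether strain or genotype set the choice of isoform, the share of an array's TPM that would have to move between members to turn 1 mouse into another was computed for every pair of mice. For Pcdha it averaged 19.0% over the 36 pairs of mice of different strains, 18.8% over the 18 pairs of the same strain and different genotype and 17.7% over the 12 pairs of the same group. For Pcdhb the averages were 20.2, 19.5 and 20.3% in that order, and for Pcdhg 14.4, 12.4 and 12.7%. Over the variable members alone the averages were 18.9, 18.7 and 16.7% for Pcdha and 18.7, 16.6 and 18.6% for Pcdhg, while Pcdhb has variable members only. The gap between pairs of different strains and pairs of the same group was thus widest in Pcdhg with all members and in Pcdha with the variable members, and the ranges of the 3 kinds of pair overlapped widely in each array. Pairs share mice and are not independent, so no test was made. Leaving out C572, the averages over all members for pairs of different strains and of the same group were 18.9 and 17.5% for Pcdha, 20.2 and 19.7% for Pcdhb and 15.2 and 11.7% for Pcdhg. Leaving out SW22 and C572S they were 18.9 and 18.9%, 20.1 and 21.3%, and 13.5 and 13.6%.

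**Figure D4:**
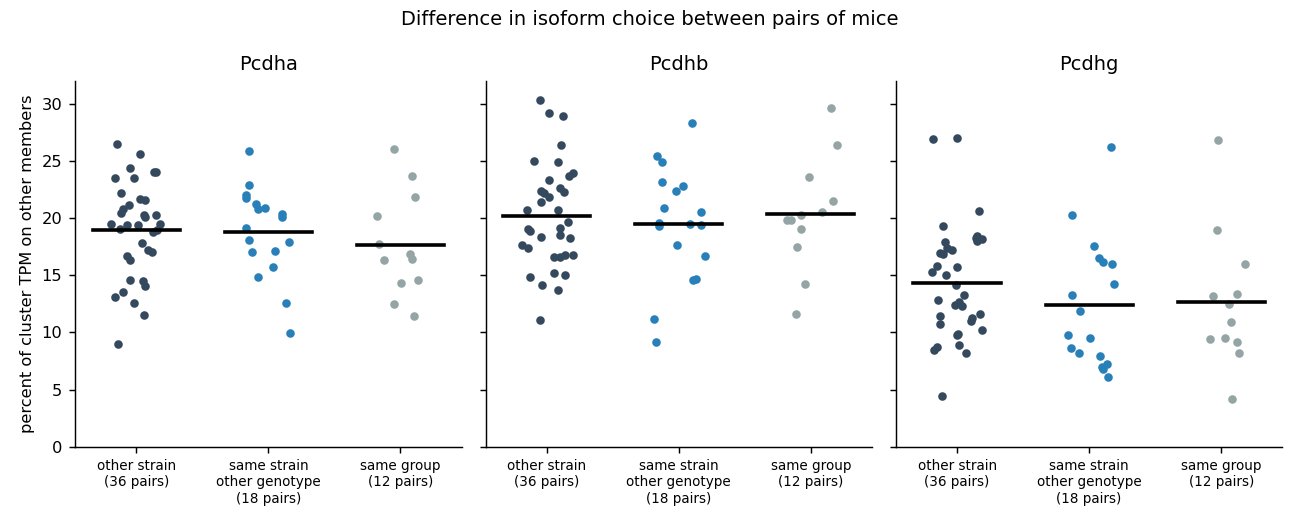
Percent of an array's TPM that lies on other members, for every pair of the 12 mice, in pairs of different strains, of the same strain and different genotype, and of the same group, with bars at the means. The 3 kinds of pair overlap in each array, with means of 19.0, 18.8 and 17.7% in Pcdha.

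Of the 59 members 55 passed the filter of a mean of 10 normalized counts and were tested with edgeR, with p-values adjusted by Benjamini-Hochberg over all 18017 genes tested. Pcdha4b, Pcdha8, Pcdhb1 and Pcdhb13 did not pass. No member reached an adjusted p of 0.05 in any comparison with edgeR or with DESeq2, the tool run beside it, and the fold changes below are therefore given as values. The members varied more between mice of 1 group than most genes. The SD of a member within groups had a median of 0.659 on the log2 scale, against 0.514 over all genes tested, at a median level of 3.15 and 3.51 log2 CPM (normalized for depth). Pcdhb14 varied least (SD 0.299) and Pcdhb4 most (SD 1.95).

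The effect of En1 hemizygosity was first compared within the OF1 strain. In OF1-En1+/- against OF1 WT mice edgeR called 0 of 55 members and 0% of all genes tested, and DESeq2 called 0 members and 1.12% of all genes. At an unadjusted p under 0.05 edgeR gave 3 members, against 9.29% of all genes. The direction differed by array. Of the Pcdhg members 20 of 22 were lower in OF1-En1+/- mice (median log2 fold change -0.48), of the Pcdha members 8 of 13 (median -0.13), and of the Pcdhb members only 5 of 20 (median 0.35), beside a median of -0.01 over all genes tested. Since Pcdhg members share the reads of the constant exons, their common direction is not a count of separate events. Without SWG 14 of 22 Pcdhg members were lower, and without SW7 8 Pcdhb members were.

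Pcdha10, a variable member, had the smallest p of this comparison. Its normalized counts were 181, 214 and 242 in OF1-En1+/- mice and 382, 296 and 1061 in OF1 WT mice. Every En1+/- mouse was below every WT mouse, but SWG alone carried much of the WT mean, and without SWG the log2 fold change was -0.68, against -1.43 (SE 0.504, edgeR adjusted p = 0.465) with all mice. Pcdhac1 went the other way, with 162, 307 and 406 normalized counts in OF1-En1+/- and 37.8, 49.1 and 163 in OF1 WT mice. Only SW21 and SWG met, and the log2 fold change was 1.81 (SE 0.687, edgeR adjusted p = 0.487), or 2.73 without SWG. Pcdhgc4 had 6044, 7285 and 5012 normalized counts in OF1-En1+/- and 8818, 8497 and 15565 in OF1 WT mice. The groups did not overlap, with a log2 fold change of -0.83 (SE 0.342, edgeR adjusted p = 0.514), or -0.51 without SWG, and the division of reads with the short transcript described above applies to it.

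By position of the mice, 1 member (Pcdhb22) was above in all OF1-En1+/- mice, against 7.68% of all genes tested, and 6 were below (Pcdha10, Pcdha12, Pcdhga3, Pcdhgb6, Pcdhga11 and Pcdhgc4), against 8.04%. These are 1 and 6 of 55. Markers of neurons of the subthalamic nucleus and posterior hypothalamus, which lie in front of the SNpc, summed to 39.6 to 141 TPM in OF1-En1+/- and 395 to 1704 TPM in OF1 WT mice without overlap. Oligodendrocyte lineage markers also separated these groups, at 1206 to 2256 TPM in OF1-En1+/- and 429 to 863 TPM in OF1 WT mice. Endothelial markers summed to 175 to 304 TPM in OF1-En1+/- and 76.6 to 191 TPM in OF1 WT mice, with 8 of 8 higher in OF1-En1+/- mice (median log2 fold change 0.62). The part of these differences in the values of the members was not tested. Without SW22 and C572S, 3 members were above and 8 below, against 12.8 and 13.0% of all genes.

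In the C57 strain C57-En1+/- against C57 WT mice gave 0 of 55 members with edgeR, against 0% of all genes tested, and 0 with DESeq2, against 0.411%. At an unadjusted p under 0.05 there were 0 members, against 8.89% of all genes. As many as 43 of 55 members were lower in C57-En1+/- mice (median -0.40, against 0.00 over all genes), made up of 21 of 22 Pcdhg (median -0.46), 13 of 20 Pcdhb (median -0.35) and 9 of 13 Pcdha members (median -0.22). This lean rested in part on C572, the mouse whose label is in doubt: without it 36 of 55 were lower, with a median of -0.21 beside -0.04 over all genes, and 16 of 22 in Pcdhg (median -0.20). Every C57 WT library was also deeper (at least 61433970 reads) than any C57-En1+/- library (at most 37754338), so genotype and depth cannot be told apart in C57.

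The members with the smallest p in C57 were Pcdha9, Pcdhga5 and Pcdhga7. Pcdha9 had 391, 513 and 884 normalized counts in C57-En1+/- mice and 865, 939 and 1227 in C57 WT mice (log2 fold change -0.71, SE 0.371, edgeR adjusted p = 0.612). C575 alone reached the WT range. Pcdhga5 had 71.9, 347 and 235 in C57-En1+/- and 345, 543 and 422 in C57 WT mice (log2 fold change -0.94, SE 0.533, edgeR adjusted p = 0.638), with only C572 above the lowest WT mouse. Pcdhga7, the most frequent leader of the variable Pcdhg members, had 284, 519 and 954 in C57-En1+/- and 609.8, 1157 and 1268 in C57 WT mice (log2 fold change -0.73, SE 0.444, edgeR adjusted p = 0.662). All 3 values turned on single mice: without C575 the log2 fold change was -1.08 for Pcdha9 and -1.24 for Pcdhga7, without C5713 it was -0.53 for Pcdhga5 and -0.41 for Pcdhga7, and without C572 it was -1.49 for Pcdhga5. No member was above in all C57-En1+/- mice, against 6.2% of all genes, and 4 were below (Pcdhb2, Pcdhb6, Pcdhgb1 and Pcdhga10), against 8.08%. Without C572, 4 members were above and 6 below, against 9.53 and 12.1% of all genes.

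Whether the genotype acted differently in the strains was tested as the interaction, the effect in C57 minus that in OF1. edgeR called 0 of 55 members and 0% of all genes, DESeq2 called 0 members and 0.233% of all genes, and 0 members had an unadjusted p under 0.05, against 7.22% of all genes. The median was -0.50 over Pcdhb, with 15 of 20 members below 0, and -0.01 over Pcdhg, with 10 of 22 above 0, beside 0.01 over all genes. Without C572 the Pcdhg median was 0.26, with 16 of 22 above 0, and the Pcdhb median -0.37, beside -0.04 over all genes. The deeper C57 WT libraries enter the interaction too, and the part of depth in it cannot be told apart. Pcdha10 had an interaction of 1.43 (SE 0.700, edgeR adjusted p = 0.714), which was 0.68 without SWG. In C57 it had 356, 171 and 484 normalized counts in C57-En1+/- and 233, 337 and 479 in C57 WT mice, which overlapped. Pcdhb6 had an interaction of -1.84 (SE 0.927, edgeR adjusted p = 0.720), which was -1.14 without SWB, and Pcdhb9 of -0.94 (SE 0.494, edgeR adjusted p = 0.725). Averaged over both strains, En1+/- against WT mice also gave 0 of 55 members and 0% of all genes with edgeR, and 0 members and 1.33% of all genes with DESeq2. Here 4 members had an unadjusted p under 0.05, against 11.4% of all genes: Pcdhac1 (log2 fold change 1.34, SE 0.477), Pcdhgc4 (-0.62, SE 0.241), Pcdha12 (-0.71, SE 0.310) and Pcdha11 (-0.74, SE 0.332). Of the Pcdhg members 21 of 22 were lower (median -0.48), with the same shared reads and the same difference in depth in C57. Pcdha12 had 529.9, 669.7 and 418 normalized counts in OF1-En1+/- and 1085, 872 and 744 in OF1 WT mice, without overlap, and 284, 364 and 835 in C57-En1+/- and 505, 598 and 1363 in C57 WT mice, with C575 inside the WT range. Without C5743 its log2 fold change over both strains was -0.43.

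**Figure D5:**
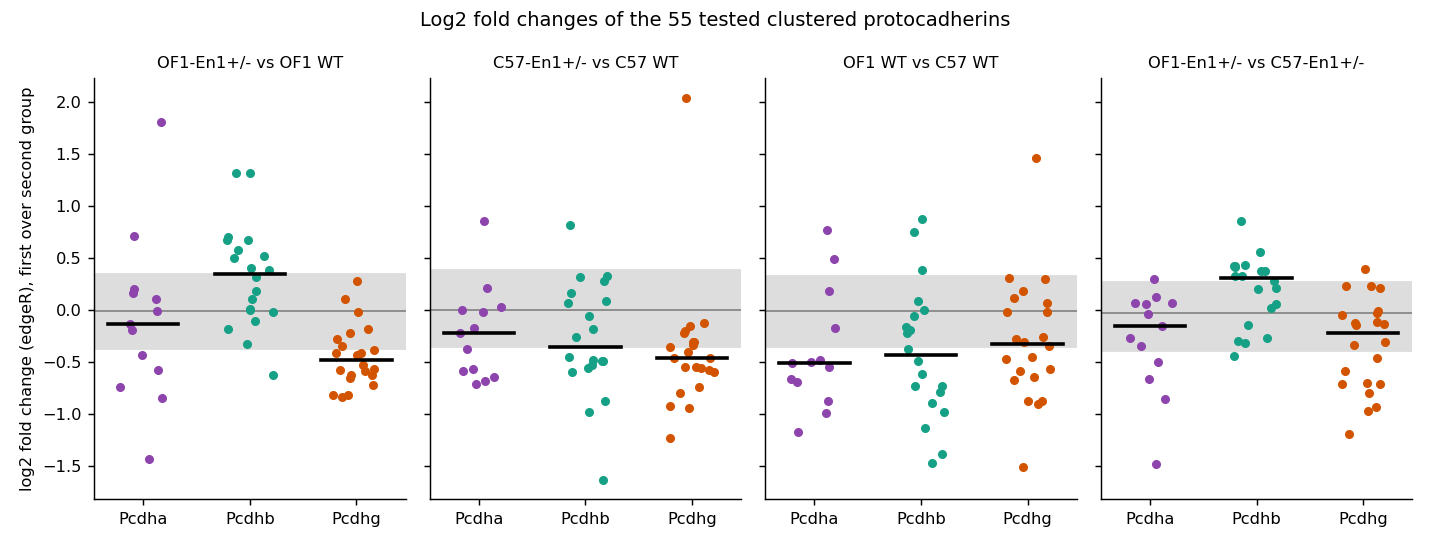
Log2 fold changes of the 55 tested members from edgeR, by array, in the 4 comparisons between groups, with bars at the median of each array and, behind them, the median (line) and middle 50% (grey band) of all genes tested. Most Pcdhg members lie below 0 for En1+/- against WT mice in both strains (20 and 21 of 22), and no point passes the adjusted threshold.

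The strains were compared within each genotype. In OF1 WT against C57 WT mice edgeR called 0 of 55 members, against 1.02% of all genes tested, and DESeq2 0, against 2.53%. At an unadjusted p under 0.05 there were 3, against 8.54% of all genes. Of the members 41 of 55 were lower in OF1 WT mice (median -0.47, against -0.01 over all genes), with medians of -0.51 in Pcdha, -0.43 in Pcdhb and -0.32 in Pcdhg. Leaving out SW22 and C572S, 41 of 56 were lower, with a smaller median of -0.35, against -0.01 over all genes. No member was above in all OF1 WT mice, against 6.21% of all genes, and 10 were below, against 8.57%: Pcdha3, Pcdhb4, Pcdhb6, Pcdhb7, Pcdhb9, Pcdhga1, Pcdhga2, Pcdhga5, Pcdhgb6 and Pcdhga11. All 3 C57 WT libraries were deeper than any OF1 WT library, so strain and depth cannot be told apart here. For highly polymorphic immune genes the authors raise an effect of mapping on strain comparisons, and such an effect on the members was not tested.

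Pcdhga5 had 142, 72.5 and 232 normalized counts in OF1 WT and 345, 543 and 422 in C57 WT mice, with a log2 fold change of -1.51 (SE 0.542, edgeR adjusted p = 0.411). Pcdha3 had 521, 248 and 431 in OF1 WT and 689, 1310.1 and 789.6 in C57 WT mice (log2 fold change -1.17, SE 0.423, edgeR adjusted p = 0.417). Pcdhb6 had 89.7, 12.9 and 71.0 in OF1 WT and 134, 173 and 184 in C57 WT mice (log2 fold change -1.46, SE 0.665, edgeR adjusted p = 0.574). In each of these genes every OF1 WT mouse was below every C57 WT mouse, and the unevenness lay within groups, in SW7 for Pcdhga5 and Pcdhb6 and in C572S for Pcdha3.

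In OF1-En1+/- against C57-En1+/- mice edgeR called 0 of 55 members, against 0.966% of all genes tested, and DESeq2 0, against 2.46%, while 3 had an unadjusted p under 0.05, against 8.13% of all genes. Of the members 31 of 55 were lower in OF1-En1+/- mice (median -0.05, against -0.02 over all genes), but this count changed with the libraries kept. Without C572 38 of 55 were lower (median -0.19, against 0.01 over all genes), and without SW22 and C572S 39 of 56 (median -0.16, against -0.04). Pcdhg had 18 of 22 members lower (median -0.22) and Pcdhb 15 of 20 higher (median 0.30), and without C572 these were 19 of 22 (median -0.45) and 12 of 20 (median 0.11). No member was above in all OF1-En1+/- mice, against 6.49% of all genes, and 2 were below, Pcdha1 and Pcdhga11, against 6.75%. Without C572 1 was above and 11 were below, against 11.9 and 13.3% of all genes.

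Pcdhga11 had 185, 321 and 303 normalized counts in OF1-En1+/- and 324, 347 and 1185 in C57-En1+/- mice, a log2 fold change of -1.19 (SE 0.466, edgeR adjusted p = 0.513). The groups only just separated, at 321 and 324, and C575 was far above the rest. Without C575 the log2 fold change was -0.34. Pcdhga3 had 361, 326 and 236 in OF1-En1+/- and 585, 263 and 917 in C57-En1+/- mice, a log2 fold change of -0.93 (SE 0.376, edgeR adjusted p = 0.535), with C572 inside the OF1-En1+/- range, and of -0.49 without C575. Pcdha1 had 88.0, 156 and 66.4 in OF1-En1+/- and 347, 288 and 220.4 in C57-En1+/- mice, a log2 fold change of -1.48 (SE 0.608, edgeR adjusted p = 0.548), where the groups did not overlap. In WT mice Pcdha1 had 193, 104 and 168 in OF1 and 156, 526 and 91.7 in C57, which overlapped.

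Averaged over both genotypes, with 6 OF1 against 6 C57 mice, edgeR called 0 of 55 members, against 2.01% of all genes tested, and DESeq2 0, against 3.62%. At an unadjusted p under 0.05 there were 6 members, against 8.59% of all genes, and all 6 were lower in OF1: Pcdhga11, Pcdha3, Pcdhga5, Pcdhga3, Pcdha1 and Pcdha7. Of the 55 members 39 were lower in OF1 (median -0.23, against -0.02 over all genes). No member had all 6 OF1 mice on 1 side of all 6 C57 mice (0 above, against 1.4% of all genes, and 0 below, against 0.988%). With all 12 libraries Pcdhga11 came closest to the threshold of any member in any comparison, both with edgeR and with DESeq2, with a log2 fold change of -1.03 (SE 0.328, edgeR adjusted p = 0.226, DESeq2 adjusted p = 0.0707). Its OF1 WT mice had 394, 382 and 474 normalized counts and its C57 WT mice 693, 563 and 1108, so that all OF1 mice lay below all C57 WT mice, while C57-En1+/- mice C5713 and C572 lay among the OF1 mice. Over the alternatives run, its log2 fold change was -1.21 to -0.61 (-0.61 without C575) and its adjusted p 0.0707 to 0.445. Leaving out C572, Pcdhga3 had a lower edgeR adjusted p, of 0.0626, in this comparison.

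Genes that act with the clustered protocadherins were read from lists chosen by function. The list for promoter choice and chromatin (CTCF, cohesin and its loader and release factors, SMCHD1, DNA methylation and repressors) had 26 of 26 genes tested, and edgeR and DESeq2 called 0 in each of the 7 comparisons, with 0 to 2 at an unadjusted p under 0.05, against 7.22 to 11.4% of all genes. Its medians were -0.14 in OF1-En1+/- against OF1 WT, -0.14 in C57-En1+/- against C57 WT, -0.07 in OF1 WT against C57 WT and -0.05 in OF1-En1+/- against C57-En1+/- mice. Ctcf, the DNA-binding factor that loops enhancers to the chosen promoters, had 513 ± 89.8 normalized counts in OF1-En1+/- against 550.1 ± 132 in OF1 WT mice and 606 ± 139.9 in C57-En1+/- against 718 ± 156 in C57 WT mice (SD, n = 3 each). Rad21, a cohesin subunit, had 1566 ± 396 against 1518 ± 137 in OF1 and 1527 ± 471 against 1551 ± 427 in C57, in the same order. Nipbl, which loads cohesin, had 671 ± 145 against 789.7 ± 179.9 and 885 ± 165 against 866 ± 135. Smchd1, a repressor of these arrays, had 354 ± 76.4 against 376 ± 93.7 and 396 ± 138 against 463 ± 135. Each of these differences between genotypes was smaller than the SD of at least 1 of the groups compared. Between strains, Ctcf in WT mice and Nipbl in En1+/- mice were lower in OF1 by more than the SD of either group.

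Of 23 partners and signalling genes edgeR called 1, the tyrosine kinase Src, in OF1 WT against C57 WT mice, against 1.02% of all genes. It had 642, 911 and 858 normalized counts in OF1 WT and 294, 362 and 307 in C57 WT mice, a log2 fold change of 1.37 (SE 0.239, edgeR adjusted p = 0.0134). It had 563, 635 and 512 in OF1-En1+/- and 398, 316 and 459.7 in C57-En1+/- mice, a smaller gap also without overlap, and over both genotypes Src was higher in OF1 by 0.96 (SE 0.168, edgeR adjusted p = 0.00821). Nckap1, a subunit of the WAVE complex that binds protocadherin tails, was lower in OF1 over both genotypes (log2 fold change -0.65, SE 0.139, edgeR adjusted p = 0.0318), so that 2 of 23 were called there, against 2.01% of all genes. Its mean was 3800.2 ± 225 in OF1-En1+/- against 5833 ± 147 in C57-En1+/- mice and 3473 ± 798 in OF1 WT against 5723 ± 1189 in C57 WT mice (SD, n = 3 each). In the other 5 comparisons edgeR and DESeq2 called 0 of the 23, with 0 to 5 at an unadjusted p under 0.05, against the same 7.22 to 11.4% of all genes.

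The non-clustered protocadherins and the related Fat, Dachsous and Celsr genes lie elsewhere and share no exons with the arrays. Of 21 genes 20 were tested and Fat2 was listed at 0. edgeR called 0 in each comparison. In OF1-En1+/- against OF1 WT mice 6 of 20 had an unadjusted p under 0.05, against 9.29% of all genes, and DESeq2 called Pcdh17 and Pcdh20, against 1.12% of all genes. In the other 6 comparisons DESeq2 called 0, and 0 to 6 had an unadjusted p under 0.05, against 7.22 to 11.4% of all genes. Pcdh17 had 3444, 3183 and 3490.1 normalized counts in OF1-En1+/- and 5783, 11662 and 5609 in OF1 WT mice (log2 fold change -1.19, edgeR adjusted p = 0.444, DESeq2 adjusted p = 0.0317). Pcdh20 had 498, 356 and 744 in OF1-En1+/- and 4151, 419 and 2962 in OF1 WT mice (log2 fold change -2.22, edgeR adjusted p = 0.448, DESeq2 adjusted p = 0.0459). All OF1-En1+/- mice were below all OF1 WT mice in Pcdh17, and SW7 lay among the OF1-En1+/- mice in Pcdh20.

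Over the 12 mice the members moved within wide limits. For members above 0 in every mouse the highest mouse had 2.81 to 12.1 times the TPM of the lowest in Pcdha (median 5.77, 13 members), 2.33 to 22.6 times in Pcdhb (median 6.04, 18 members) and 2.79 to 29.4 times in Pcdhg (median 6.00, 22 members). Pcdhb14, Pcdhb19 and Pcdhga12 were the steadiest and Pcdhgb4, Pcdhb6 and Pcdhgb8 the least steady. The gene total of Pcdhgc4, the most abundant member, was among the steadier with a range of 3.15 times. That total includes the short transcript, and the long transcript alone ranged far more widely, from 6.93 TPM in C572 to 107 TPM in SWG. The 5-exon transcripts annotated for Pcdha1, Pcdha2, Pcdha4, Pcdha6 and Pcdha11, whose constant part is cut differently from the usual form, made up 29.7% (SW22) to 58.7% (C5710) of the TPM of these 5 genes, with means of 38.9 ± 10.6% in OF1-En1+/-, 37.7 ± 6.98% in OF1 WT, 39.4 ± 8.68% in C57-En1+/- and 47.1 ± 14.5% in C57 WT mice (SD, n = 3 each).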

How the data were processed

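The files deposited by the authors come from Salmon, run on the transcripts of GRCm39, and hold, for each library, the estimated count of reads, the TPM and the effective length of each transcript. The TPM deposited by the authors are scaled to the same total in each library, and effective length (bases, adjusted by Salmon for GC content and fragment length) was used only as an offset in 1 alternative. Of 140790 transcripts 139555 were matched by identifier to GENCODE M39 and the others were left out. Estimated counts were summed per gene, rounded and tested with edgeR 4.0.16 in R 4.3.3 (TMM factors, robust quasi-likelihood test, 1 mean per group, all 12 libraries) for the 18017 genes with a mean of at least 10 normalized counts, with Benjamini-Hochberg adjustment and a threshold of 0.05. Log2 CPM carried a prior count of 2. DESeq2 1.42.0 was an alternative. Libraries of 1 group differed by more than sampling noise, so each counted as 1 replicate. TPM were summed over the transcripts of each member for levels and shares. Each pair of mice was compared by the sum of the absolute differences of shares, divided by 2. Values per mouse are given for the C-type members except Pcdhgc5, which has a range. They are given in full or in part for members with the smallest p of each comparison and for some members that led an array. The members and lists were chosen with earlier results of these data known. Python 3.11.15, pandas 2.3.3, numpy 2.4.6 and matplotlib 3.10.9 were used. The edgeR and DESeq2 fits were tested on simulated gene counts for OF1-En1+/- against OF1 WT mice, and the other steps were not. The alternatives are given in the closing section.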

Additional observations from a re-analysis of the deposited data

How the results depend on the processing

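The count of 0 called members held in all 123 combinations of comparison and alternative run: DESeq2, relative log expression factors, no filter, effective length offsets, a fit on the 6 libraries compared, each library left out in turn (0 to 0 in each comparison), and SW22 and C572S left out. The lowest adjusted p of a member among them was 0.0626, for Pcdhga3 in OF1 against C57 without C572. Leaving out each library in turn, 14 to 22 Pcdhg members were lower with the En1+/- genotype in OF1 and 16 to 21 in C57, 4 to 8 Pcdhb members were lower with it in OF1 (8 without SW7), and 38 to 46 members were lower in OF1 WT against C57 WT mice. These counts, and leaving out the short Pcdhgc4 transcript, were chosen after seeing the data. With that transcript left out of both the gene and the array total, the share of Pcdhgc4 in Pcdhg was 39.1% in OF1-En1+/- and 51.5% in OF1 WT mice. It was 35.9% in C57-En1+/- and 43.3% in C57 WT mice. With the transcript kept, that share in OF1-En1+/- mice was 50.1% by normalized counts and 55.5% with overlapping gene models added. By counts the share of Pcdhac2 in Pcdha was 22.6% in C57 WT mice. Counting only transcripts with at least 2000 bases of constant exon, a cut that the short Pcdhgc4 transcript passes, Pcdhg summed to 178.9 TPM in C57 WT mice. The split of constant-exon reads cannot be checked from the files, and members with few reads in the OF1 libraries limit what could be detected. No paired analysis was possible because the labels give no shared replicate numbers.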
